A study of Ambystoma mexicanum with 12 samples.

Results

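Limb tissue of aged axolotls was set against limb tissue of juvenile axolotls, before any amputation. The aged group held 2 libraries from animals of 8 years, numbered 1 and 2, and the juvenile group held 5 libraries from animals of 8 months, numbered 2, 3, 5, 6 and 8. These 7 of the 12 libraries of the series were picked out by their labels, but the comparison was chosen with earlier results of these data known. The other 5 are blastemas of the juvenile animals, collected on day 10 after amputation. All animals were *Ambystoma mexicanum* from a captive colony that descends from wild-caught axolotls, and neither sex nor any allele was given. The aged animals formed no blastema after amputation according to the study. The labels name the posterior leg, the methods the inferior limbs and the text a forelimb, so fore- or hindlimb could not be settled. The sources do not say whether bone, skin and muscle were taken in fixed proportions, and each library is 1 animal, so the spread between libraries holds both the animals and the dissection.

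A limb holds skeletal muscle, skin, bone and cartilage, nerve, blood vessels and a connective tissue of fibroblasts. Fibroblasts secrete the collagens and glycoproteins of the matrix, and they supply much of the blastema from which an axolotl limb regrows. Osteoblasts lay down and mineralize bone, which in growing animals adds to a skeleton that is still enlarging. In whole tissue, fewer cells of a type and less RNA per cell cannot be told apart.

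The aged libraries had 17666680 and 16836023 counts on genes, and the juvenile libraries had between 12975883 and 18575093. Between 30297 and 35977 genes were detected in the aged limbs and between 33236 and 46501 in the juvenile limbs. The 100 genes with the most counts took 39.0% and 48.2% of the counts in aged limbs 1 and 2, and from 37.3% to 45.5% in the juvenile limbs. Levels are given as CPM (counts scaled to a common library total) after TMM scaling. Across the 24316 genes tested, log2 fold changes had a median of -0.04, which the TMM scaling sets near 0. Gene names were available for 1419 of the genes tested, and the rest are given by their AMEX60DD identifiers, which carry no name or function here.

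Epidermal genes were detected in every library. The keratin copies *KRT12.1* and *KRT12.7*, markers of the epidermis, stood at 5146 and 5007 CPM and at 5841 and 5467 CPM in the aged limbs, within juvenile ranges of 2968 to 8598 and 3079 to 9446 CPM. The list of 29 keratin and epidermal genes summed to 18845 and 18025 CPM in the aged limbs, against 13866 to 25054 CPM in the juvenile limbs. None of its members had both aged limbs outside the range of the juvenile limbs, but 23 of the 29 were lower on average. In edgeR, 3 had an unadjusted p under 0.05, all lower (4.55% of all genes tested). Of the 29, 27 stand in the study's table of genes that differed between blastemas and juvenile limbs. There, 14.2% had such a p and a lower level. Aged limb 2 lay below every juvenile limb for 10, a count for which no share over all genes was taken.

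Muscle genes differed widely between the aged limbs. The sarcomere genes, which encode the contractile filaments of muscle, summed to 37705 CPM in aged limb 1 and 4985 CPM in aged limb 2. The juvenile limbs held 39142, 16802, 55151, 23506 and 79094 CPM. Aged limb 1 was thus inside the juvenile range, close to its median, and aged limb 2 was below every juvenile limb.

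**Figure D1:**
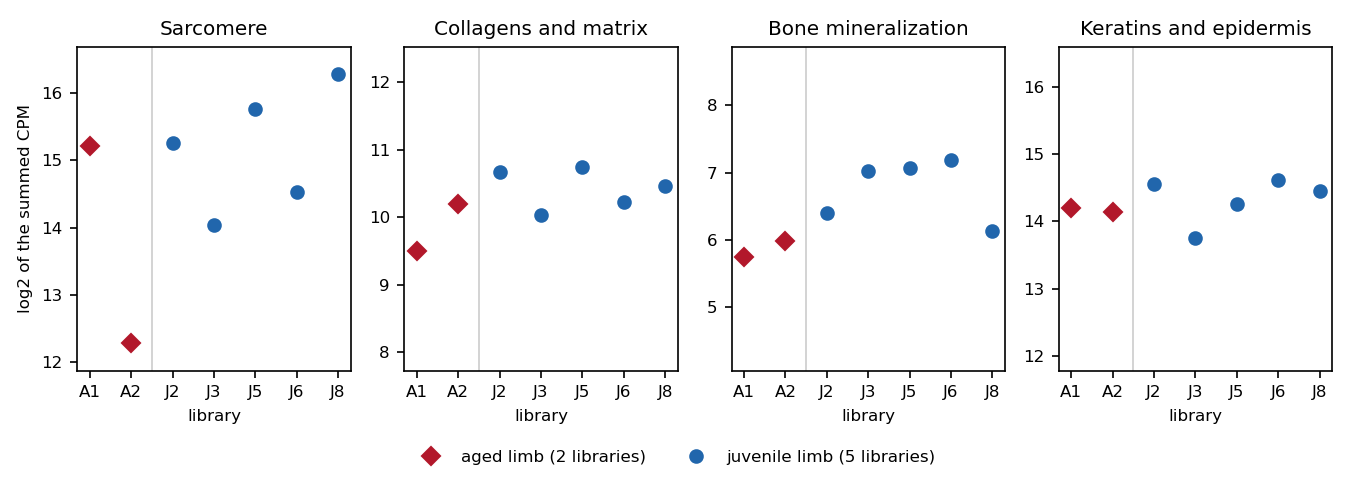
Summed level of 4 gene lists in each library, as log2 of the summed CPM on the vertical axes, with panels of equal height in log2 units. A1 and A2 are the aged limbs (diamonds) and J2 to J8 the juvenile limbs (circles). Aged limb 2 lies below all other libraries for the sarcomere list, both aged limbs lie below all juvenile limbs for the bone mineralization list, whose aged sums are mostly *CTSK*, and the keratin sums of the aged limbs lie inside the juvenile range.

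The same split ran through single muscle genes. The myosin heavy chain *MYH2.1* stood at 9241 and 1074 CPM in the aged limbs, against 7667, 4374, 10953, 4199 and 10618 CPM in the juvenile limbs. The titin copy *TTN.6*, part of the giant spring protein of the sarcomere, stood at 4302 and 499.7 CPM in the aged limbs, against 1463 to 8005 CPM. Of the 118 muscle genes tested, 111 were more than 2-fold higher in aged limb 1 than in aged limb 2 and 0 were more than 2-fold lower. Over all 24316 genes tested, 4628 were more than 2-fold higher and 3501 more than 2-fold lower, so the aged limbs also differed outside muscle. The median log2 difference between aged limb 1 and aged limb 2 was 2.88 for the sarcomere list, 2.96 for calcium handling and excitation, and 1.84 for muscle energy metabolism.

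A test of aged limb 1 against aged limb 2, with the spread taken from the juvenile limbs and the lone samples assumed to vary like them, called 0 genes in edgeR's quasi-likelihood test (0% of genes tested in either direction). At an unadjusted p under 0.05, 931 genes were higher and 757 lower in aged limb 1, and DESeq2 called 343 genes.

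To describe age apart from muscle, the log2 of the summed sarcomere level was added to the model, and the age term then gives the difference at equal muscle content. In that model 295 genes had a positive muscle slope (1.21%) and 34 a negative one (0.14%), and 85 of the 295 were members of the muscle lists. Of the 85, 56 belong to the sarcomere list whose sum is the covariate, so their slope is largely fixed beforehand. Without aged limb 2, only 53 genes in place of 329 had a slope in either direction. The median log2 fold change of the sarcomere genes between aged and juvenile limbs was -1.23 with the group alone and -0.04 at equal muscle content, which is how the covariate was built. None of the 66 sarcomere genes tested was called by edgeR in either fit, and DESeq2 called 7 lower (0.383% of all genes it tested). An unadjusted p under 0.05 was found for 11, all lower (4.55% of all genes tested). All 66 stand in the study's table of genes that differed between blastemas and juvenile limbs. In that table, 14.2% had such a p and a lower level. DESeq2 also called 2 genes lower in each of the other muscle lists. The furthest above the juvenile mean was *CSRP3*, a LIM protein of the Z-disc, with 432.8 and 61.4 CPM in the aged limbs and 65.3 to 235.3 CPM in the juvenile limbs. Aged limb 1 lay above and aged limb 2 below all juvenile limbs for that gene.

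Few genes differed between the groups beyond the spread of the libraries. With a Benjamini-Hochberg adjusted p under 0.05 from edgeR's quasi-likelihood fit and more than 2-fold change as the call, 13 genes were higher in aged limbs (0.0535% of genes tested) and 12 were lower (0.0494%), 25 in all (0.103%). In all 25, both aged limbs lay outside the range of the juvenile limbs and within 2-fold of each other. The call itself favours such genes, so this is no separate finding. Here and below, the 2-fold limit was taken on CPM + 0.1, so genes near no count in both aged limbs pass it. DESeq2, the tool of the study, called 68 genes higher (0.11% of 61880) and 237 lower (0.383%). Of the 25 genes called by edgeR, 23 were among them. The study's own count with DESeq2 at these thresholds was smaller, and the reason was not tested. The edgeR calls rest on every library. Without aged limb 1 no gene was called, without aged limb 2 there were 4 higher and 5 lower, and without any 1 juvenile limb there were 0 or 1 higher and 3 to 5 lower. All 25 genes kept their direction in each of these fits. That follows from both aged limbs lying outside the juvenile range, and it adds no support.

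Of the 25 genes, 4 have a name. *NNMT.19* is named for nicotinamide N-methyltransferase, which methylates nicotinamide and so links methyl donors to the NAD pathway. The study lists an indolethylamine N-methyltransferase-like protein as the closest match of *NNMT.19*. It reports an incomplete catalytic domain in *NNMT.19* and *NNMT.20*, and calls the functional status of these proteins unclear. Enzyme activity was not tested here. *NNMT.19* rose in aged limbs. It stood at 15.97 and 8.64 CPM in the aged limbs, against 1.38, 1.85, 0.961, 0.9003 and 0.862 CPM in the juvenile limbs (log2 fold change 3.35 ± 0.40 SE, adjusted p = 0.0361). The lowest aged limb was more than 4 times the highest juvenile limb. The neighbouring copy *NNMT.20* had 41.6 and 17.4 CPM in the aged limbs, against 4.29, 2.67, 2.51, 3.81 and 0.934 CPM, and did not pass in edgeR (3.37 ± 0.49, adjusted p = 0.0603) but did in DESeq2 (adjusted p = 9.5e-07). The 2 copies may share reads, so they are not separate evidence.

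*DMBT1.17*, a copy of a secreted scavenger receptor of mucosal surfaces, also rose. It stood at 10.8 and 8.86 CPM in the aged limbs, against 0, 0.461, 0.148, 0.346 and 0.216 CPM in the juvenile limbs (5.34 ± 0.71, adjusted p = 0.0416). Every juvenile limb was thus close to the limit of detection, and both aged limbs were well above it.

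*TAF7L.2*, a copy of a TFIID subunit known in mouse for its part in male germ cells and fat cells, fell. It stood at 0.496 and 0.290 CPM in the aged limbs, against 8.14, 6.20, 3.92, 6.23 and 5.82 CPM in the juvenile limbs (-3.89 ± 0.50, adjusted p = 0.0361). *MACROD1.1*, a copy of a mitochondrial enzyme that removes ADP-ribose from proteins, fell to 1.59 and 1.82 CPM in the aged limbs, against 13.3, 6.77, 13.8, 12.67 and 14.1 CPM in the juvenile limbs (-2.83 ± 0.39, adjusted p = 0.0483). The groups did not overlap for either gene. *MACROD1.1* was also low in the blastemas, at 0 to 0.724 CPM, whereas *TAF7L.2* had 4.58 to 9.19 CPM there.

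**Figure D2:**
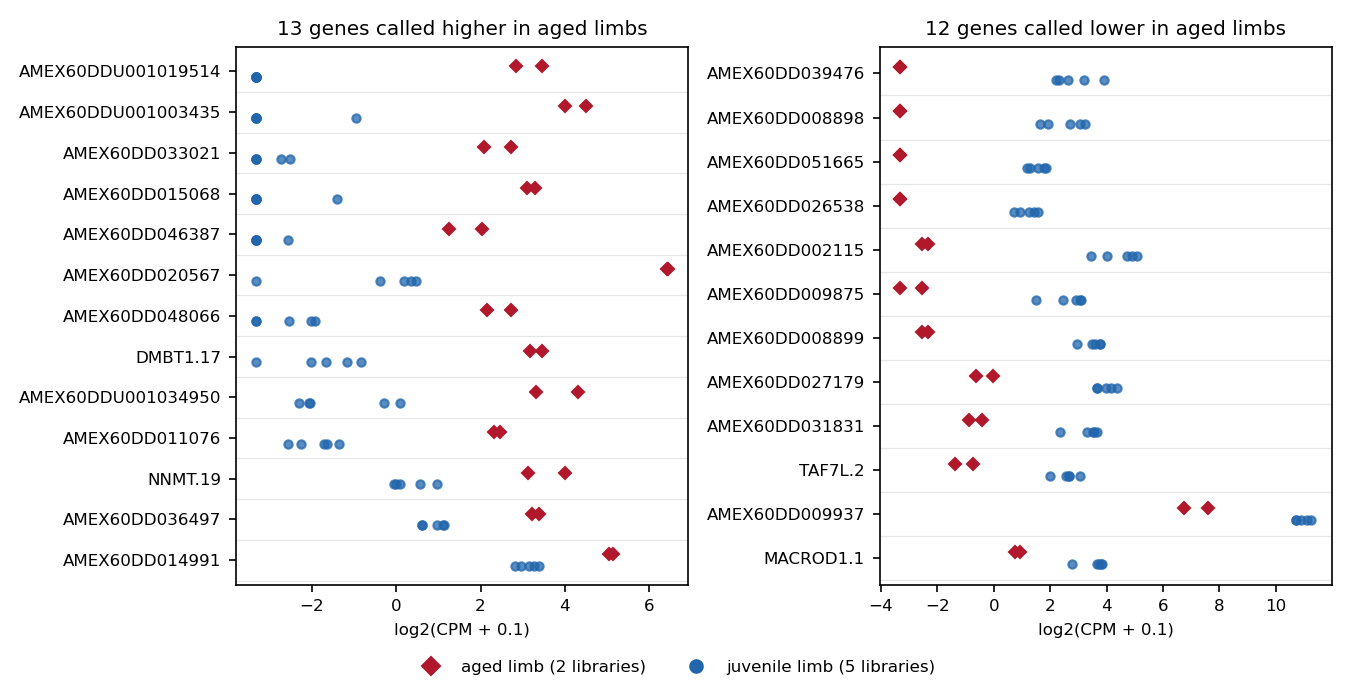
Level of the 25 genes called between aged and juvenile limbs in each library, as log2(CPM + 0.1), a log scale. Each row is a gene, diamonds are the 2 aged limbs and circles the 5 juvenile limbs. The 2 diamonds of a gene lie close together and apart from all circles, a pattern that the call itself favours. Several genes have the diamonds or the circles at the left edge, where no count was found.

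The other 21 genes called have no name here. Among those higher in aged limbs, AMEX60DD020567 had 85.3 and 86.6 CPM in the aged limbs, against 0.660, 1.28, 1.18, 1.04 and 0 CPM in the juvenile limbs (6.67 ± 0.69, adjusted p = 0.025). It was also the only gene called higher at equal muscle content (1 gene, 0.00411% of genes tested). AMEX60DDU001019514 had 10.9 and 7.12 CPM in the aged limbs and no count in any juvenile limb, and so was at least 248-fold higher in aged limbs when the juvenile group is set to a floor of 3 counts. The floor stands for counting error alone. AMEX60DDU001003435, with 22.5 and 16.05 CPM, and AMEX60DD015068, with 8.43 and 9.73 CPM, had counts in only 1 juvenile limb, at 0.416 and 0.277 CPM, and are the 2 genes that DESeq2 did not call (adjusted p = 0.219 and 0.127).

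A further 5 unnamed genes called higher stayed under 1 CPM in every juvenile limb. AMEX60DD033021, with 6.50 and 4.14 CPM in the aged limbs and 2 counts over the juvenile limbs, was 220-fold higher (95% exact counting interval 60.2 to 1833), and AMEX60DD046387, with 2.28 and 3.99 CPM and 1 count, was 237-fold higher (41.5 to 9444). AMEX60DD011076 had 4.86 and 5.37 CPM against 0.0693 to 0.287 CPM, AMEX60DD048066 had 4.31 and 6.54 CPM against 0 to 0.165 CPM, and AMEX60DDU001034950 had 19.8 and 9.88 CPM against 0.103 to 0.961 CPM. Both aged limbs thus had counts where the juvenile limbs had few. The expression filter sets this in part, since it needs enough counts in at least 2 libraries. Genes with so few juvenile counts could be tested only because both aged limbs had counts. The same holds for *DMBT1.17* and for the genes above with counts in at most 1 juvenile limb.

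Smaller differences were seen where juvenile limbs had more counts. AMEX60DD014991 had 35.3 and 32.8 CPM in the aged limbs, against 8.75, 7.64, 10.4, 6.99 and 9.56 CPM in the juvenile limbs (1.97 ± 0.23, adjusted p = 0.0361). AMEX60DD036497 had 10.4 and 9.22 CPM in the aged limbs, against 1.44 to 2.08 CPM (2.46 ± 0.32, adjusted p = 0.0361). For both, each aged limb lay above every juvenile limb.

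Among the genes lower in aged limbs, 4 had no count in either aged limb and counts in every juvenile limb. AMEX60DD039476 had 9.19, 4.87, 6.06, 14.9 and 4.53 CPM in the juvenile limbs and was at least 88.4-fold lower in aged limbs, with the aged group set to the same floor of 3 counts. AMEX60DD008898 was at least 70.4-fold lower, AMEX60DD051665 at least 31.8-fold and AMEX60DD026538 at least 25.2-fold. These genes were also present in the blastemas of the juvenile animals, with 2.64 to 8.04 CPM for AMEX60DD039476 and 3.44 to 7.76 CPM for AMEX60DD051665.

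Next to the second of these in the numbering, AMEX60DD008899 had 3 counts over both aged limbs and 931 over the juvenile limbs, at 0.0992 and 0.0726 CPM in the aged limbs and 7.62 to 13.6 CPM in the juvenile limbs. It was 132-fold lower in aged limbs, with a 95% exact counting interval of 45.2 to 643, and had the lowest adjusted p of the comparison (0.00511). AMEX60DD002115 had 0.0992 and 0.0726 CPM in the aged limbs, against 34.0, 26.6, 29.8, 10.9 and 15.96 CPM in the juvenile limbs, which is 273-fold lower with an interval of 93.2 to 1324. AMEX60DD009875, with 1 count over both aged limbs and 2.73 to 8.53 CPM in the juvenile limbs, was 228-fold lower (40.8 to 9030). These genes were thus close to absent in the aged limbs and plain in all juvenile limbs.

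AMEX60DD009937 differed at a high level. It stood at 108.0 and 193.7 CPM in the aged limbs, against 1920, 1673, 2204, 2464 and 1696 CPM in the juvenile limbs (-3.72 ± 0.48, adjusted p = 0.0361), and at 772.1 to 2833 CPM in the blastemas. AMEX60DD031831 stood at 0.446 and 0.654 CPM in the aged limbs, against 4.97 to 12.5 CPM in the juvenile limbs (-4.20 ± 0.51, adjusted p = 0.0361). AMEX60DD027179 stood at 0.546 and 0.871 CPM in the aged limbs, against 12.6 to 20.5 CPM in the juvenile limbs and 12.4 to 18.9 CPM in the blastemas (-4.49 ± 0.41, adjusted p = 0.0149). For 11 of the 12 genes called lower, each blastema lay above both aged limbs, *MACROD1.1* being the exception, and for all 13 called higher each blastema lay below both. Over all 24316 genes tested, each blastema lay above both aged limbs for 1886 and below both for 3171, and of the 1154 genes alike below the juvenile limbs, 359 had each blastema above. The blastemas come from the same animals as the juvenile limbs, so they repeat those animals and add none.

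Over all genes tested, 9 had no count in both aged limbs and more than 1 CPM in each juvenile limb, and 6 had no count in any juvenile limb and more than 1 CPM in both aged limbs. The only one of the 15 with a name was *VMO1.11*, a copy named for a protein of the egg's vitelline membrane, with 1.04 and 1.89 CPM in the aged limbs, and it was not called (adjusted p = 0.313). Whether these genes differ in the genome of the animals was not tested.

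At equal muscle content, 5 genes were lower in aged limbs (0.0206%): AMEX60DD008899, AMEX60DD002115, AMEX60DD027179, AMEX60DD009875 and AMEX60DD003133. All but AMEX60DD003133 were called with the group alone, and that gene stood at 0.0496 and 0.218 CPM in the aged limbs, against 17.4, 15.3, 3.84, 17.2 and 5.61 CPM in the juvenile limbs. At equal muscle content, 1523 genes had an unadjusted p under 0.05. All 25 genes of the fit without muscle kept their sign, and the 20 that lost the call had adjusted p between 0.0526 and 0.155. The counts moved widely with single libraries, from 0 to 7 higher, the most without aged limb 2, and from 0 to 14 lower, the most without juvenile limb 5.

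What the aged limbs shared beyond the called genes was described without a test. Both aged limbs lay above all juvenile limbs for 1543 genes (6.35% of genes tested) and below all for 1468 (6.04%). With the further condition that the aged limbs lay within 2-fold of each other, 1452 genes remained above (5.97%) and 1154 below (4.75%). The losses from the lower side were larger, and the aged limbs lay within 2-fold of each other for 69.3% of all genes tested. With 1 CPM added to each level in place of 0.1, 1497 genes remained above and 1409 below. Of the 1154 genes below, 332 differed by more than 4-fold and 229 by more than 8-fold, and of the 1452 above 140 and 52 did. These sizes cannot be compared between the sides. A lack of counts is met more easily in 2 aged limbs than in 5 juvenile limbs, and it gives extreme fitted fold changes. Genes averaging under 1 CPM numbered 221 below and 186 above, and the median log2 fold change of all genes tested at that level was -0.32. Of the 118 muscle genes 3 were among the 1154 and 0 among the 1452, a count that the 2-fold limit sets, since 111 of them differed by more between the aged limbs. Without that limit, 7 of 66 sarcomere, 3 of 30 calcium handling and 6 of 22 muscle energy genes had both aged limbs below all juvenile limbs, against 6.04% of all genes tested. Among the 1825 genes averaging over 64 CPM, 10.8% lay above and 3.67% below, and other scalings of the libraries gave 10.7% and from 3.73% to 3.78%.

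The genes with names are not a random sample of the genome. Most come from a table of genes that differed between blastemas and the same juvenile limbs, so they share their control libraries with this comparison. Of the 1067 genes tested there, 14.2% had an unadjusted p under 0.05 and a lower level in aged limbs, and 2.16% a higher level, against 4.55% and 2.92% of all genes tested. In a second table, given in the order of its identifiers, the shares were 2.48% and 2.12% of 565 genes. Of the 16 genes tested from one more table, which the study chose on these samples for a relation to age, 9 lay below and 7 above all juvenile limbs in both aged limbs.

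Many collagens and matrix glycoproteins lay below the juvenile limbs in both aged limbs. These proteins form the fibres and the gel between cells and hold the growth factors that cells meet there. Of 38 members tested, 33 were lower on average in aged limbs, 16 had both aged limbs below all juvenile limbs (6.04% of all genes tested, and 140 of 1067 in the blastema table), and 13 of these had the aged limbs within 2-fold of each other. None passed the test in edgeR and 16 had an unadjusted p under 0.05, all of them lower. DESeq2 called 6 lower (0.383% of all genes it tested) and 0 higher (0.11%). The median log2 fold change was -1.20, against -0.04 over all genes tested, and -0.71 at equal muscle content. The median difference between the aged limbs was 0.00, but the summed level was 725.7 and 1168 CPM in the aged limbs, against 1045 to 1716 CPM in the juvenile limbs, so that aged limb 2 lay inside the juvenile range. With either aged limb left out, 10 in place of 16 had an unadjusted p under 0.05, and at equal muscle content 12 did. Since 37 of the 38 members stand in the blastema table, the 14.2% there is the nearer background.

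The collagens of the list spread widely. *COL22A1*, a collagen of tissue junctions such as that of muscle and tendon, stood at 10.6 and 6.46 CPM in the aged limbs, against 40.6, 22.4, 54.1, 32.4 and 67.5 CPM in the juvenile limbs (-2.35 ± 0.48, adjusted p = 0.192, and 0.000181 in DESeq2). *COL12A1*, which decorates collagen fibrils in tendon and dermis, stood at 59.6 and 76.5 CPM in the aged limbs, against 133.9, 98.9, 140.4, 106.7 and 102.6 CPM (-0.78 ± 0.29, adjusted p = 0.583). *COL14A1.1*, of the same family, stood at 16.6 and 10.3 CPM in the aged limbs, against 17.7 to 56.1 CPM. No value of the aged limbs reached the lowest juvenile limb in any of them. *COL21A1.10* had no count in the aged limbs and 46 counts over the juvenile limbs, and was at least 6.54-fold lower. Another copy, *COL21A1*, lay the other way, with 3.17 and 4.57 CPM in the aged limbs and 1.66 to 3.81 CPM in the juvenile limbs (0.61, adjusted p = 0.825), and the copies may share reads.

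Among the glycoproteins, *FBN2*, a fibrillin of growing elastic tissue, stood at 6.99 and 16.1 CPM in the aged limbs, against 34.2, 30.6, 46.6, 34.7 and 41.1 CPM in the juvenile limbs (-1.70 ± 0.37, adjusted p = 0.246). *MFAP2*, a partner of the fibrillins in microfibrils, stood at 10.2 and 14.5 CPM, against 19.5 to 41.0 CPM. *EMID1*, a secreted protein with an EMI domain and a collagen-like stretch, stood at 1.64 and 3.27 CPM, against 8.10 to 15.4 CPM (-2.22 ± 0.42, adjusted p = 0.142). The aged limbs lay below all juvenile limbs for each of the 3 genes, although they differed by more than 2-fold from each other for *FBN2*.

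Tenascin C and thrombospondin 2, glycoproteins that loosen the hold of cells on the matrix, lay on the same side. *TNC* stood at 33.1 and 48.9 CPM in the aged limbs, against 123.8, 123.0, 71.9, 91.8 and 70.4 CPM in the juvenile limbs (-1.23 ± 0.36, adjusted p = 0.444). *THBS2* stood at 22.0 and 27.3 CPM, against 40.7 to 56.6 CPM (-0.93 ± 0.26, adjusted p = 0.426). Some members of the list lay within the juvenile range in at least 1 aged limb. Fibronectin, *FN1*, the adhesive glycoprotein of most connective tissues, stood at 134.0 and 195.6 CPM in the aged limbs, against 138.3 to 209.5 CPM (-0.02 ± 0.31), and *TNXB*, tenascin X, at 65.02 and 74.9 CPM against 36.8 to 148.6 CPM. *LAMA3.4*, a copy of a laminin chain of the epidermal basement membrane, separated the aged limbs, with 119.4 and 453.9 CPM against 89.5 to 299.9 CPM.

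**Figure D3:**
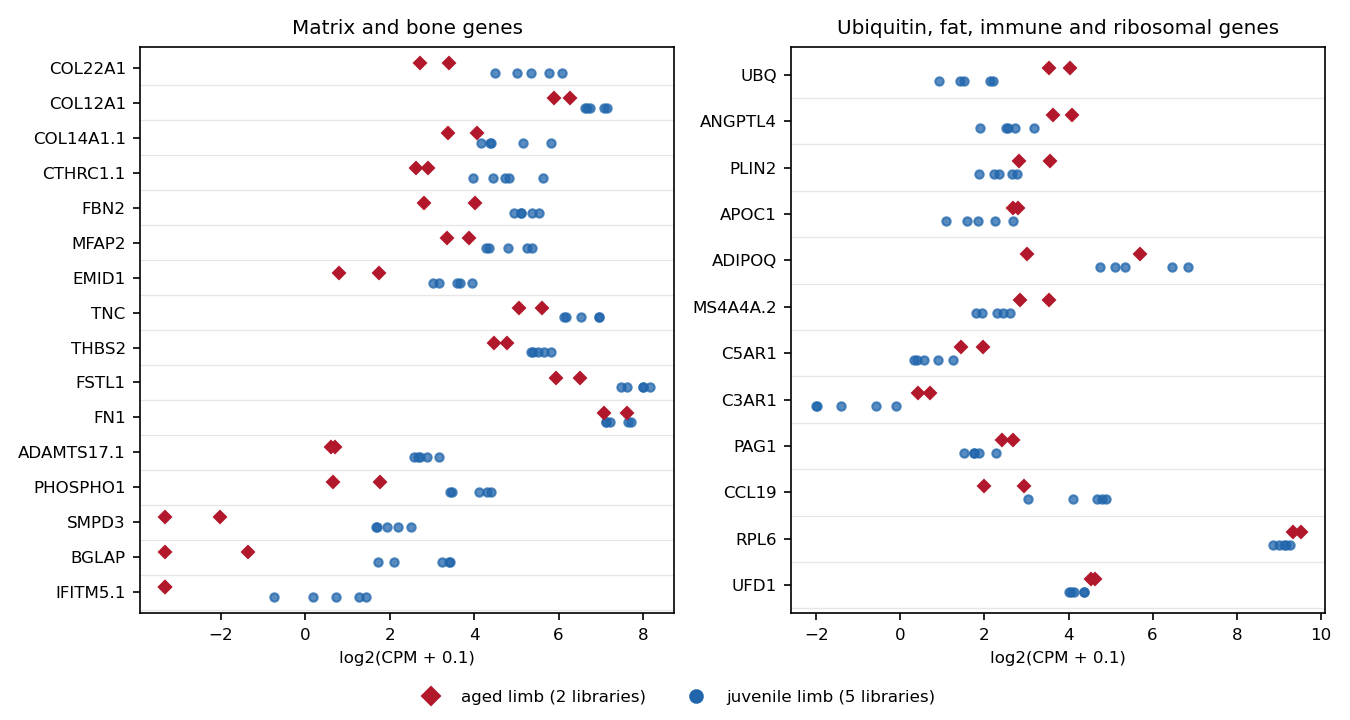
Level of genes from the fixed lists in each library, as log2(CPM + 0.1), a log scale, with matrix, collagen processing and bone genes on the left and genes of ubiquitin, fat, immune cells, ribosomes and protein degradation on the right. Diamonds are the 2 aged limbs and circles the 5 juvenile limbs. On the left the diamonds lie below the circles except for *FN1*, and on the right they lie above the circles except for *ADIPOQ* and *CCL19*. The genes shown were picked and do not stand for their whole lists. Both aged limbs lay below all juvenile limbs for 16 of 38 matrix, 4 of 21 collagen processing and 5 of 10 bone genes. They lay above all juvenile limbs for 4 of 28 immune, 4 of 13 proteasome, 3 of 6 fat and 2 of 11 ribosomal genes. Over all genes tested, 6.04% lay below and 6.35% above.

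Genes that the study itself singled out in aged limbs were also taken as a list, and since they were chosen on these samples their direction is no independent evidence. Of its 8 genes tested, 1 was called, *NNMT.19*, and DESeq2 called all 8, with 2 higher and 6 lower. *FSTL1*, a secreted follistatin-like glycoprotein of fibroblasts, stood at 61.3 and 91.4 CPM in the aged limbs, against 254.9, 177.3, 285.0, 194.9 and 254.6 CPM in the juvenile limbs (-1.61 ± 0.35, adjusted p = 0.225). *CTHRC1.1*, a copy of a secreted protein made by activated fibroblasts, stood at 7.44 and 6.03 CPM, against 21.8, 15.6, 28.5, 26.5 and 49.4 CPM (-2.07 ± 0.46, adjusted p = 0.246). Its other copy, *CTHRC1*, stood at 5.55 and 3.195 CPM against 6.87 to 30.0 CPM. No aged limb reached the lowest juvenile limb for any of these.

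*ADAMTS17.1*, a copy of a secreted metalloprotease that acts near the microfibrils, came closest to a call among matrix-related genes. It stood at 1.44 and 1.52 CPM in the aged limbs, against 7.32, 5.89, 6.51, 8.86 and 6.32 CPM in the juvenile limbs (-2.23 ± 0.35, adjusted p = 0.0735, and 0.0013 in DESeq2). By RT-qPCR, the study also reported significantly lower *ADAMTS17* in aged than in juvenile limbs. It collected additional juvenile animals for that assay and named no additional aged ones. *GPX7*, a thiol peroxidase of the endoplasmic reticulum, stood at 0.942 and 1.23 CPM, against 2.82 to 9.85 CPM (-2.64 ± 0.60, adjusted p = 0.252). *PAFAH2*, an enzyme that cleaves oxidized phospholipids, stood at 0.843 and 0.290 CPM, against 3.55 to 12.4 CPM (-3.85 ± 0.65, adjusted p = 0.105). LOC112547415.222, listed with no named function, had no count in the aged limbs and 93 over the juvenile limbs, at least 13.2-fold lower.

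A list of enzymes and helpers that fold, cross-link or cleave matrix proteins, many of them proteases, was described next. Of 21 members tested, 19 were lower on average, none was called by edgeR and DESeq2 called 2 lower (0.383% of all genes it tested). Both aged limbs lay below all juvenile limbs and within 2-fold for 4 (4.75% of all genes tested). An unadjusted p under 0.05 with a lower level was found for 2 (4.55%). All 21 stand in the blastema table, where the shares were 7.31% and 14.2%. The median log2 fold change was -0.46. *FKBP10*, a prolyl isomerase that helps collagen fold, stood at 132.7 and 144.4 CPM in the aged limbs, against 158.3 to 315.4 CPM in the juvenile limbs (-0.69 ± 0.34, adjusted p = 0.7). *RRBP1.1*, of the ribosome-binding membrane of secretory cells, stood at 6.60 and 4.07 CPM, against 10.3 to 33.6 CPM. *MMP13.1*, a collagenase, differed between the aged limbs, with 0.0496 CPM in aged limb 1 and 9.08 CPM in aged limb 2, against 4.31 to 36.7 CPM. *CALU*, a calcium-binding protein of the secretory pathway from the chaperone list, stood at 10.9 and 17.2 CPM, against 28.9 to 42.3 CPM (-1.27 ± 0.30, adjusted p = 0.278).

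Genes of bone mineralization had a median log2 fold change of -2.34 with the group alone and -3.09 at equal muscle content, and of -1.58 without aged limb 1. Of 10 members tested, 9 were lower on average, 5 had both aged limbs below all juvenile limbs (6.04% of all genes tested) and the same number had an unadjusted p under 0.05 with a lower level (4.55%). All 10 stand in the blastema table, where 140 of 1067 genes lay below and 14.2% had such a p. None was called by edgeR and DESeq2 called 4 lower (0.383% of all genes it tested). The summed level of the list was 53.6 and 63.7 CPM in the aged limbs, against 84.5, 130.1, 134.2, 145.2 and 70.1 CPM in the juvenile limbs. Neither aged limb reached the lowest juvenile limb, but *CTSK*, cathepsin K of the osteoclast, supplied 49.5 and 55.3 CPM of the aged sums, so the sum says little of the other members.

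The defining genes of osteoblasts were at or near no count in the aged limbs. *BGLAP*, osteocalcin, the calcium-binding protein that osteoblasts deposit in bone, stood at 0 and 0.290 CPM in the aged limbs, against 4.18, 9.38, 10.4, 10.6 and 3.23 CPM in the juvenile limbs (-5.82 ± 1.05, adjusted p = 0.122, and 2.98e-07 in DESeq2). *IFITM5.1*, a copy of a membrane protein known in mammals from mineralizing osteoblasts, had no count in the aged limbs and 1.05, 2.31, 1.55, 2.63 and 0.503 CPM in the juvenile limbs, at least 18.5-fold lower in aged limbs. *SMPD3*, a sphingomyelinase needed for bone mineralization in mice, had 3 counts over both aged limbs and 319 over the juvenile limbs, 45.4-fold lower with a 95% exact counting interval of 15.4 to 221.

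*PHOSPHO1*, the phosphatase that frees phosphate for the first mineral crystals, stood at 1.49 and 3.34 CPM in the aged limbs, against 10.6, 11.1, 19.8, 17.11 and 21.1 CPM in the juvenile limbs (-2.73 ± 0.47, adjusted p = 0.115). *MSX2*, a transcription factor of osteoblast precursors, stood at 1.59 and 2.90 CPM, against 3.401 to 6.66 CPM (-1.08 ± 0.45, adjusted p = 0.655). *CTSK* was not apart, with 49.5 and 55.3 CPM in the aged limbs against 35.5 to 103.1 CPM in the juvenile limbs. The aged limbs thus lay below the juvenile limbs for the genes of bone formation named here and not for the one of bone resorption. How much bone each sample held was not measured.

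The nerve list lay low in part. *UGT8*, which makes the galactolipids of myelin, stood at 0.794 and 1.09 CPM in the aged limbs, against 1.90 to 3.45 CPM in the juvenile limbs (-1.53 ± 0.48, adjusted p = 0.512). *PRPH*, the neuronal filament peripherin, stood at 26.4 and 9.37 CPM, against 20.2 to 118.9 CPM, so that aged limb 1 lay inside the juvenile range. None of the 7 members was called by either tool, 3 had an unadjusted p under 0.05, all lower, and the median was -1.07. All 7 stand in the blastema table, where 14.2% of genes had such a p and a lower level.

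**Figure D4:**
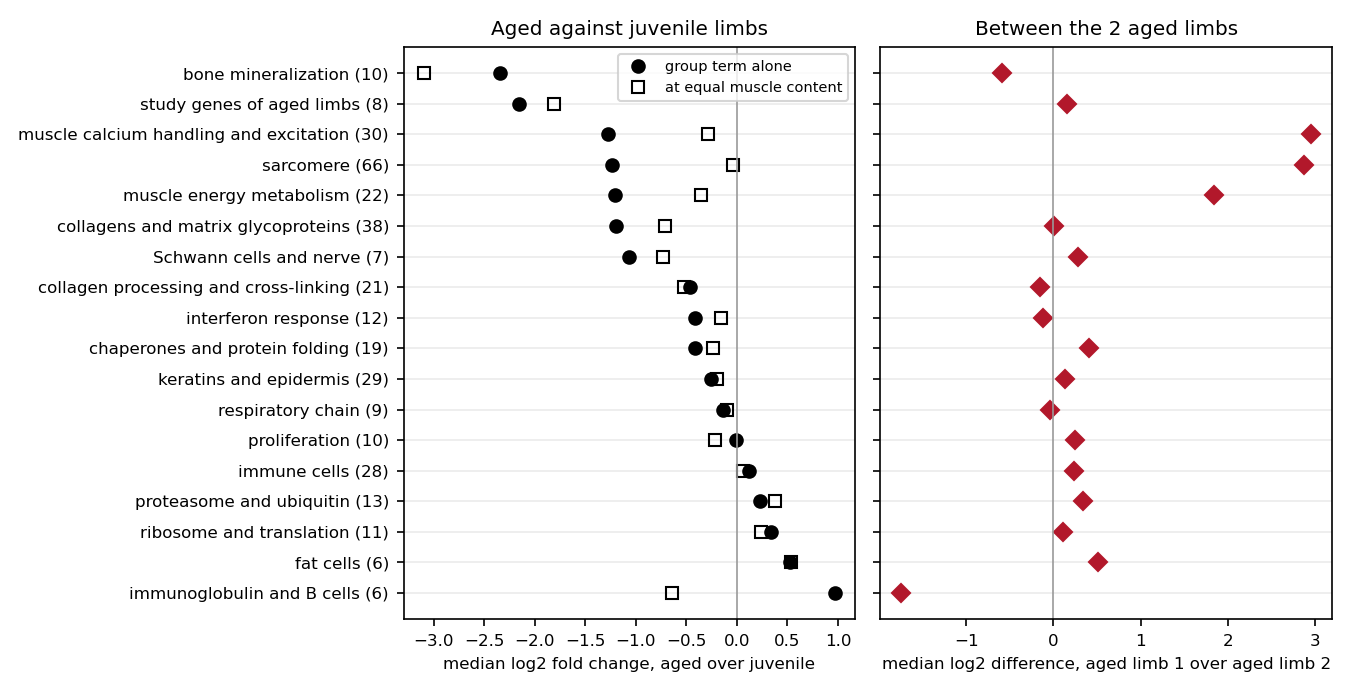
Median log2 fold change of each fixed gene list between aged and juvenile limbs on the left, with the group alone (filled) and at equal muscle content (open), and the median log2 difference between aged limb 1 and aged limb 2 on the right. Numbers in brackets are the genes tested. The 3 muscle lists lie far above 0 on the right, and the immunoglobulin list far below it, at -1.75. The collagen list lies at 0.00 on the right and at -1.20 on the left.

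Fewer named genes lay above the juvenile limbs, and fat, ubiquitin and macrophage genes were among them. The ubiquitin copy *UBQ* stood at 16.4 and 11.5 CPM in the aged limbs, against 4.51, 4.31, 2.74, 1.80 and 2.59 CPM in the juvenile limbs (2.12 ± 0.38, adjusted p = 0.12, and 0.00443 in DESeq2). Of 13 genes of the proteasome and ubiquitin tested, 4 had both aged limbs above all juvenile limbs and within 2-fold (5.97% of all genes tested), and the median was 0.23. *UFD1*, which hands ubiquitinated proteins to the proteasome, stood at 24.8 and 23.2 CPM, against 15.955 to 20.7 CPM (0.40 ± 0.23, adjusted p = 0.756). Only *UBQ* had an unadjusted p under 0.05.

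Of the 6 fat cell genes tested, 3 lay above all juvenile limbs in both aged limbs (6.35% of all genes tested), 2 had an unadjusted p under 0.05 with a higher level (2.92%) and none was called by either tool. The median log2 fold change was 0.53, and -0.26 without aged limb 1. *ANGPTL4*, a secreted inhibitor of lipoprotein lipase, stood at 12.3 and 16.9 CPM in the aged limbs, against 3.63, 5.64, 5.84, 8.93 and 6.54 CPM in the juvenile limbs (1.26 ± 0.34, adjusted p = 0.394). *PLIN2*, the coat protein of lipid droplets in many cell types, stood at 11.8 and 6.97 CPM, against 3.58 to 6.79 CPM (0.84 ± 0.34, adjusted p = 0.644). *APOC1*, an apolipoprotein, stood at 6.89 and 6.32 CPM, against 2.04 to 6.25 CPM. *ADIPOQ*, adiponectin, the hormone that defines fat cells, did not go with them, at 51.5 and 7.99 CPM against 26.8 to 115.2 CPM. The defining marker was therefore no higher in the aged limbs, and in aged limb 2 it lay below all juvenile limbs.

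Immune genes lay on both sides, with 15 of 28 higher on average and a median of 0.12. *MS4A4A.2*, a copy of a macrophage surface protein, stood at 11.5 and 7.04 CPM in the aged limbs, against 3.74, 5.33, 4.81, 5.96 and 3.38 CPM in the juvenile limbs (1.00 ± 0.33, adjusted p = 0.549). The complement receptors *C5AR1* and *C3AR1*, through which myeloid cells sense complement fragments, stood at 2.63 and 3.78 CPM and at 1.54 and 1.23 CPM in the aged limbs, against 1.15 to 2.29 and 0.148 to 0.831 CPM. The chemokine *CCL19*, which draws dendritic cells and T cells, lay the other way, at 3.87 and 7.55 CPM against 29.7, 8.15, 17.2, 25.4 and 27.6 CPM (-1.92 ± 0.54, adjusted p = 0.426, and 0.0244 in DESeq2). The macrophage receptor *MARCO* was inside the juvenile range, at 24.9 and 16.05 CPM against 10.3 to 38.0 CPM. No immune gene was called by edgeR. Of those tested, 2 had an unadjusted p under 0.05 with a higher level (2.92% of all genes tested) and 1 with a lower one (4.55%).

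Ribosomal and translation genes had a median of 0.33, with none of 11 at an unadjusted p under 0.05. *RPL6*, a protein of the large ribosomal subunit, stood at 735.4 and 641.6 CPM in the aged limbs, against 464.1 to 613.4 CPM in the juvenile limbs (0.34 ± 0.29, adjusted p = 0.876). The interferon list (12 genes, median -0.41) and the respiratory chain list (9 genes, median -0.13) had no member with both aged limbs outside the juvenile range. The proliferation list had a median of -0.01 over 10 genes. Within it *CKAP2L*, a spindle protein, stood at 0.198 and 0.726 CPM against 1.87 to 4.51 CPM, and *ORC6*, of the replication origin complex, at 4.17 and 3.99 CPM against 1.29 to 3.90 CPM. The 6 immunoglobulin genes had a median of 0.97 with the group alone and -0.65 at equal muscle content, and none lay outside the juvenile range in both aged limbs. Their median log2 difference between aged limb 1 and aged limb 2 was -1.75.

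The remaining named genes with the smallest unadjusted p were of mixed function. *PSAPL1*, a relative of the lysosomal protein prosaposin, stood at 42.4 and 63.0 CPM in the aged limbs, against 14.1, 10.5, 5.47, 13.6 and 13.7 CPM in the juvenile limbs (2.20 ± 0.35, adjusted p = 0.0805, and 0.000212 in DESeq2). *KCNJ16*, an inward rectifier potassium channel, stood at 7.09 and 11.4 CPM, against 1.21 to 5.23 CPM, and *FBXO21*, a subunit of a ubiquitin ligase, at 4.96 and 4.50 CPM against 1.38 to 3.12 CPM. The LOC-named genes LOC114595149.107, LOC115461127, LOC111772992 and LOC340211.24 also lay above all juvenile limbs, by log2 fold changes of 0.60 to 0.95. None of these passed the test in edgeR.

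On the lower side, *BTBD8* had 2 counts over both aged limbs and 465 over the juvenile limbs, which is 99.2-fold lower with a 95% exact counting interval of 27.3 to 821 (adjusted p = 0.0603). It was called on all 12 libraries and with DESeq2. *SELENOW*, a small selenoprotein abundant in muscle, stood at 10.4 and 5.81 CPM in the aged limbs, against 20.1 to 33.8 CPM (-1.60 ± 0.34, adjusted p = 0.223, and -1.34 at equal muscle content). LOC102059433 stood at 81.2 and 82.1 CPM in the aged limbs, against 183.7 to 355.5 CPM, and LOC112126096 at 10.6 and 13.4 CPM against 32.6 to 68.8 CPM. *PVALB.3*, a copy of the calcium buffer parvalbumin of fast muscle, had 1 count in aged limb 1 and none in aged limb 2, against 164 counts over the juvenile limbs. It was 69.95-fold lower in aged limbs, with an interval of 12.4 to 2780 (adjusted p = 0.269, and 0.0169 in DESeq2).

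Muscle content moved with some of these values and was given beside them for that reason. At equal muscle content the log2 fold change of *CTHRC1* was -1.05 in place of -2.04 and that of *COL22A1* was -1.66 in place of -2.35, whereas *FSTL1* had -1.60 and -1.61, *TNC* had -1.59 and -1.23, and *PHOSPHO1* had -2.83 and -2.73. With 2 aged limbs of unlike muscle content, the covariate is set largely by aged limb 2, and the part of muscle content in the remaining differences was not tested. The age of the animals, and with it their body size and rearing time, is the only labelled difference between the groups, and the batch of dissection or sequencing was not given, so age and any such batch cannot be told apart.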

How the data were processed

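Libraries were ribosomal RNA depleted, made with the SMARTer Stranded V2 kit and sequenced in pairs. The authors trimmed reads with Trimmomatic 0.39, aligned them to the AmexG_v6.0-DD assembly (STAR 2.7.9a), and deposited counts per AmexT_v47 gene from featureCounts. The settings for strand, multiply mapped reads and overlapping genes were not given in the sources used here, so copies with numbered suffixes and overlapping genes are uncertain. Library totals ran from 12975883 to 18575093 counts over the 7 limbs.

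Genes passing edgeR's expression filter were fitted with edgeR 4.0.16 (R 4.3.3, TMM, quasi-likelihood test, Benjamini-Hochberg adjustment), on the 7 limbs alone, with DESeq2 1.42.0 as the alternative. Each library is 1 animal. A call needed an absolute log2 fold change over 1 and an adjusted p under 0.05. Equal muscle content means a fit with the log2 summed sarcomere CPM as a covariate. Genes with no count in a group were set to a floor of 3 counts over that group, and ratios of 1 to 3 counts have 95% exact intervals, both for counting error alone. The scripts were tested on simulated data.

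Named were the genes called, the 12 named genes in each direction with the smallest unadjusted p among those with an average log2 CPM over 1 and both aged limbs outside the juvenile range and within 2-fold of each other, the study's own genes of aged limbs, and members of the fixed lists on which a count or a range turned. Names came from the identifier and name columns of the study's tables. The comparison, its members and the lists were chosen with earlier results of these data known. Alternatives were other scalings, filters and tools, all 12 libraries, and leaving out each library. One list member is not reported here.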

Additional observations from a re-analysis of the deposited data

Results flagged for a closer look

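Among the 114 groups examined for the genes and sums of the text, 6 had a juvenile limb far from the other 4, where chance gives about 5% of groups. MACROD1.1 had 6.77 CPM in juvenile limb 3, and AMEX60DD031831 had 4.97 CPM in the same limb, both still above the 2 aged limbs. AMEX60DDU001003435, AMEX60DD015068 and AMEX60DD046387 had 0.416, 0.277 and 0.0693 CPM in juvenile limb 6 and no count in the other juvenile limbs. AMEX60DD020567 had 0.0 CPM in juvenile limb 8.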

How the results depend on the processing

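All 25 genes called kept their direction under every alternative, while the counts of calls moved widely. With both aged limbs outside the juvenile range, a kept direction is largely fixed beforehand and adds little. In place of 13 higher and 12 lower, there were 68 and 237 with DESeq2, 230 and 667 with no filter on low counts, 2 and 3 against a threshold fold change of 2, and 1 and 5 with muscle content as a covariate. Higher calls numbered 5 on all 12 libraries and 8 with a mean of at least 10 counts. Leaving out 1 library gave 0 to 4 higher and 0 to 5 lower, where a lone aged limb is assumed to vary like the juvenile limbs. At equal muscle content, higher calls numbered 3 with DESeq2 size factors, 2 with all 3 muscle lists and 0 with a mean of at least 10 counts, where 1 was lower, and DESeq2 with the covariate gave 64 and 228. Leaving out 1 library gave 0 to 7 higher and 0 to 14 lower there. Between the aged limbs DESeq2 called 343 genes and edgeR 0, and without aged limb 2 the muscle slope had 53 genes in place of 329, settings chosen after seeing the data. The cause of these shifts was not tested.

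With the covariate, list medians were -3.09 for bone mineralization, -0.71 for collagens and matrix, -0.65 for immunoglobulins and -1.81 for the study's genes. Leaving out 1 library, medians ran from -3.43 to -1.58 for bone, -0.98 to -0.19 for chaperones, -0.78 to -0.38 for collagen processing, -0.26 to 0.78 for fat cells, -0.999 to 1.34 for immunoglobulins, -3.58 to -0.56 for muscle calcium handling, -2.76 to -0.56 for muscle energy, -0.63 to 0.11 for proliferation, 0.23 to 0.44 for proteasome and -3.33 to -0.41 for the sarcomere. Collagen and matrix genes at an unadjusted p under 0.05 numbered 10 to 20, and bone genes 4 to 7, counts also added after seeing the data.

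Signs turned for 7 genes, none called. With 1 library left out, log2 fold changes ran from -1.18 to 1.67 for CSRP3, -1.11 to 1.54 for LMOD3, -0.28 to 0.22 for FN1, -0.68 to 1.21 for LAMA3.4, -2.82 to 0.33 for MYH2.1 and -3.10 to 0.053 for TTN.6. FN1 was also at 0.0041 with no filter, and the covariate gave -0.29 for LAMA3.4, 0.14 for MYH2.1, 0.12 for TTN.6 and 0.32 for TNXB. No paired analysis was possible because the groups share only the number 2, which names different animals. Folds against 0 to 3 counts are bounded by depth.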
